A study of Homo sapiens with 18 samples.

Results

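The lysosome is the acid compartment in which cells break down proteins, sugar chains, lipids and worn organelles, and autophagy is the route by which a cell's own material is wrapped in a membrane and delivered to it. The 30 genes described here encode soluble hydrolases and their helper proteins, proteins of the lysosomal membrane, subunits of the V-ATPase that pumps protons into the lysosome, and factors of the autophagosome. They were chosen by name from what these proteins are known to do, but with earlier results of these data known. All 30 were found among the 58721 gene rows of the count table. Many lysosomal genes are known to be switched on together by transcription factors of the MiT/TFE family (MITF, TFEB, TFE3 and TFEC), which bind E-box type sites near gene starts. In melanocytes and melanoma cells the lysosome is related to the melanosome, and MITF is a lineage factor that SOX10 is known to activate.

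The libraries came from A375, a human melanoma cell line obtained from ATCC and kept in DMEM with 10% FBS, and formed 6 groups of 3. In the control group the guide RNA was directed at GFP, which the human genome does not contain, and the cells are labelled wild type. TADA2B, the gene of a SAGA subunit (SAGA is a histone-modifying complex), was knocked out with 2 guides (here guide 1 and guide 2), each its own line. Control cells and both knockout lines were also profiled with overexpression of SOX10, a neural crest and melanocyte transcription factor, so that every SOX10 group shares its guide with the matching group without it. The labels do not describe the SOX10 construct, do not say whether a knockout line is a clone or a pool of cells, and do not state whether the 3 libraries of a group were separate cultures. Every p-value thus reflects the spread between these libraries, which may be technical.

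Total counts ran from 58573910 to 79874237 per library, and no gene of the list had fewer than 416 reads in any library. TADA2B read 25.6 to 30.2 CPM (read counts scaled to a common library size) in the knockout libraries without SOX10 and 32.2 to 32.8 in the controls, and the groups did not overlap. SOX10 read 341 to 364 CPM in control cells, 451 to 454 with overexpression, 39.9 to 87.0 in the knockout lines and 240 to 307 in the knockout lines with SOX10. A set of 10 melanoma markers, to which SOX10 belongs, summed to 535 to 563 CPM in control cells, 893 to 895 in control cells with SOX10, 259 to 301 in the knockout lines and 458 to 565 in these lines with SOX10. Most of the control sum was SOX10 itself, with means of 354 CPM there and of 83.6 and 43.4 with guide 1 and guide 2. In the knockout SOX10 fell by more than the whole sum did. MITF, also in the set, had means of 39.7 CPM in control cells and of 84.3 and 92.1 with guide 1 and guide 2. Of the 9 markers tested 3 were called higher and 6 lower in the knockout (adjusted p under 0.05, edgeR), where 28.6% and 29.5% of all genes tested were. The melanocyte enzyme TYR was at or under 3 counts in every group except control cells with SOX10. Summed fibroblast markers (8 genes) lay at 5.12 to 6.91 CPM in control libraries, 13.3 to 14.5 in control cells with SOX10, 33.8 to 40.4 in the knockout lines and 46.4 to 53.2 in these lines with SOX10. In the knockout groups most of this sum was LUM, with means of 21.9 and 23.3 CPM for guide 1 and guide 2, and of 37.3 and 43.3 with SOX10. COL1A1 went from 8.13 and 9.10 CPM to 3.07 and 3.18. Of the 7 fibroblast markers tested 3 were higher and 4 lower with SOX10 in the knockout lines, where 28.1% of all genes were called in each direction. Summed keratinocyte or epithelial markers (8 genes) lay at 194 to 195 CPM in control cells, 166 to 168 with SOX10, 363 to 409 in the knockout lines and 314 to 374 in these lines with SOX10. Most of this sum was KRT18, with means of 159 CPM in control cells and of 227 and 239 with guide 1 and guide 2. Of the 7 epithelial markers tested 6 were higher and 1 lower in the knockout (28.6% and 29.5% of all genes). With SOX10 in the knockout lines 2 of them were higher and 5 lower (28.1% of all genes in each direction). The 10 macrophage markers lay at 8.71 to 9.79 CPM in control cells, 5.91 to 6.73 with SOX10, 7.22 to 11.0 in the knockout lines and 19.6 to 23.2 in these lines with SOX10, with TYROBP and MARCO at or under 3 counts throughout. Most of this last sum was LYZ, with means of 18.8 and 20.8 CPM in the 2 knockout groups with SOX10 and of 8.37 in control cells. Of the 7 macrophage markers tested 3 were higher and 3 lower with SOX10 in the knockout lines (28.1% of all genes in each direction). The part of these markers in the results was not tested, and in bulk RNA a change in the number of cells of a type and a change in RNA per cell cannot be told apart.

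The second library of guide 2 stood apart from its group, with a chi-square per gene of 11.8 and 10.4 against the other two, which differed from each other by 4.60. Without it, the knockout calls of 28 of the 30 genes described below were unaffected: GAA was no longer called (adjusted p = 0.0569, edgeR) and GRN became higher (adjusted p = 0.00989, edgeR). Other calls that turned on this library are given beside their comparison.

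In control cells the levels of the 30 genes, per kilobase of the principal transcript, spanned 41.3-fold. PSAP, the precursor of the saposins that help split sphingolipids, was highest at 147 ± 6.28 CPM per kilobase (SD, n = 3), followed by the peptidase gene CTSZ at 123 ± 3.66 and by LAMP1, an abundant glycoprotein of the lysosomal membrane, at 87.4 ± 1.24. The lowest were ACP5 (tartrate-resistant acid phosphatase) at 4.27 ± 0.239, WIPI1, which binds phosphoinositides at forming autophagosomes, at 3.85 ± 0.512, and HEXA, the alpha subunit of beta-hexosaminidase, at 3.56 ± 0.111 CPM per kilobase (SD, n = 3). Of the 29 pairs of neighbours in this order, 9 overlapped in their 3 control libraries, among them SQSTM1 with MAP1LC3B and ACP5 with WIPI1. The strand setting and the treatment of reads shared by genes were not given in the sources used here, and 16 of the 30 genes share exonic bases with another annotated gene, 7 of them on the same strand. CTSD, the aspartic protease cathepsin D, shares 1304 of its 3126 exonic bases with a gene on the same strand, so its level of 11.4 ± 0.0509 CPM per kilobase (SD, n = 3) depends on how such reads were assigned. GUSB and MAP1LC3B also have near-identical relatives elsewhere in the genome, and their counts are uncertain for that reason.

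**Figure D1:**
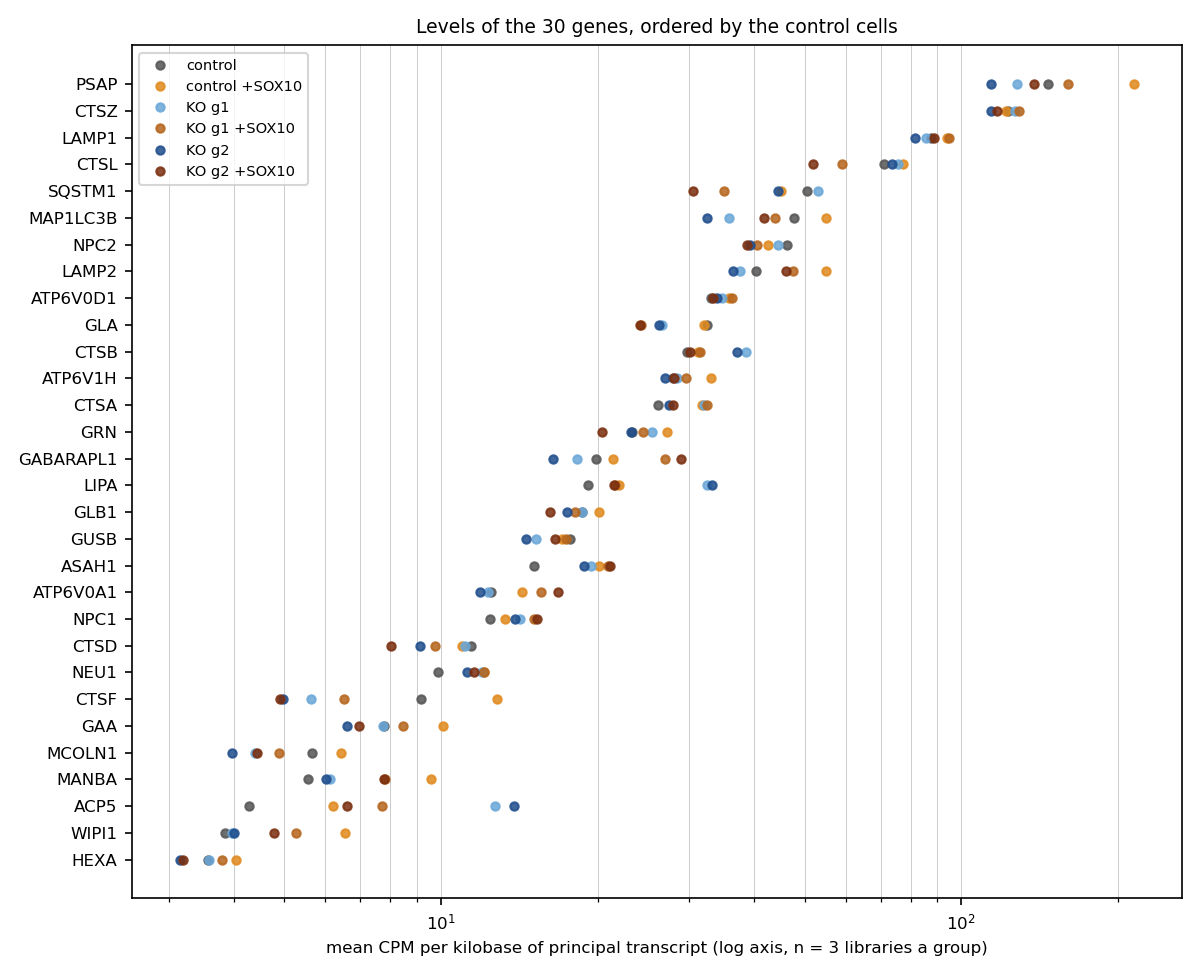
Mean CPM per kilobase of principal transcript (x axis, logarithmic) of the 30 genes (y axis, ordered by the control cells), 1 point per group and 3 libraries a group, with KO g1 and KO g2 for the knockout lines of guide 1 and guide 2. PSAP is at the top at 147 in control cells and HEXA at the bottom at 3.56, and the points of ACP5 and LIPA spread furthest to the right in the 2 knockout groups without SOX10.

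Promoter windows of RefSeq (GRCh38.p14), running from 250 bases before to 50 bases after a start site, were at hand for 23 of the 30 genes. These 23 genes had 31 windows. The 7 genes without one were ATP6V1H, HEXA, CTSB, PSAP, ASAH1, MANBA and LAMP2. Both strands were searched for the palindromic E-box CACGTG, for TCACGTGA, which contains that E-box and is the core of the site bound by TFEB and TFE3, and for TCATGTG, a form of the site bound by MITF. CACGTG was in 9 of the 31 windows, from 9 genes (ACP5, ATP6V0D1, CTSA, CTSD, CTSF, GAA, LAMP1, MCOLN1 and NEU1), and 7.26% of all 35116 windows held it. TCACGTGA was in 5 of the 31, from 5 genes (ATP6V0D1, CTSA, GAA, LAMP1 and MCOLN1), against 0.980% of all windows. TCATGTG was in 3 of the 31, from 3 genes (ACP5, CTSA and GRN), against 2.92%. The stretches below show the longer E-box of each of the 5 genes that hold it, and the TCATGTG match of ACP5, the gene that changed most. LAMP1, GAA and MCOLN1 each hold a second match, 2, 32 and 15 bases before the start, which is not shown. The stretches are written 5′ to 3′ on the gene's strand with the motif in capitals, which in ACP5 reads as the complement strand of TCATGTG. The windows of ACP5 (11577596 to 11577895) and CTSA (45891085 to 45891384) lie wholly inside the annotated spans of these genes. These spans are 11574660 to 11579008 and 45890144 to 45898820. For these 2 genes the start is thus an internal start site. A match describes letters only and is not evidence that a factor was bound.
LAMP1, 29 bases before the start, plus strand, chr13:113297200-113297227: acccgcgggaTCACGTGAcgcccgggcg
ATP6V0D1, 60 bases before, minus strand, chr16:67481200-67481227: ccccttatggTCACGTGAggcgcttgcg
GAA, 77 bases before, plus strand, chr17:80101494-80101521: ggaggccgcgTCACGTGAcccaccgcgg
MCOLN1, 42 bases before, plus strand, chr19:7522572-7522599: ccagaggcggTCACGTGAggggctctgg
CTSA, 26 bases before, plus strand, chr20:45891299-45891326: gcgccggagtTCACGTGActcgtacaca
ACP5, 115 bases before, minus strand, chr19:11577744-11577770: gtccagggctCACATGAcccaagggga

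Knockout of TADA2B, taken as the mean of both guides against control, split the list. Of the 30 genes 21 changed (70.0%), 9 higher and 12 lower, at an adjusted p under 0.05 in edgeR's quasi-likelihood test, and in this comparison 58.1% of all 21060 genes tested were called, 28.6% higher and 29.5% lower. The median log2 fold change was −0.05 over the list and −0.01 over all genes tested. ACP5 alone changed by more than 2-fold, and ACP5, LIPA and CTSF were the 3 called at 0.5 or more log2 units in either direction, a size at which 25.7% of all genes were called. With library-size scaling in place of TMM, which moved the median of all genes by 0.155 (log2), 18 genes were called higher and 6 lower, with 43.3% and 16.8% of all genes. The 9 higher calls and 6 of the lower calls (CTSF, GLA, GUSB, PSAP, MCOLN1 and MAP1LC3B) were made under both scalings. The libraries of both guides lay above all controls for 8 genes and below them for 10, where 24.8% and 25.2% of all genes did so.

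ACP5 encodes a secreted and lysosomal acid phosphatase best known from osteoclasts (ENSG00000102575, chromosome 19, 11574660 to 11579008). It read 7.13, 6.94 and 7.72 CPM in the control libraries. It read 21.4, 21.8 and 21.6 CPM in those of guide 1 and 24.0, 23.7 and 22.6 in those of guide 2. Every knockout library was above every control, with a fold change of 3.10 (log2 1.63, SE 0.0583, adjusted p = 8.41e-26, edgeR). LIPA, the acid lipase that frees cholesterol and fatty acids from lipids taken into the lysosome (ENSG00000107798, chromosome 10, 89213569 to 89414557), read 52.6, 55.1 and 52.9 CPM in control cells. It read 87.1, 93.6 and 90.5 CPM with guide 1 and 92.4, 94.4 and 90.3 with guide 2. The groups did not overlap and the rise was 1.71-fold (log2 0.77, SE 0.0302, adjusted p = 1.94e-24, edgeR). LIPA shares 65 exonic bases with IFIT2 on the opposite strand, an interferon-induced gene that had a mean of 2.56 CPM in the control group, 6.91 with guide 1 and 8.28 with guide 2, and how shared reads were assigned was not tested.

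The remaining soluble proteins with roles in lipid breakdown did not move as 1 group. ASAH1, the acid ceramidase, rose 1.27-fold (log2 0.34, SE 0.0357), from 37.3 to 39.0 CPM in control libraries to 46.0 to 50.5 in those of both guides. PSAP read 408, 415 and 442 CPM in control cells, 371, 364 and 364 with guide 1 and 333, 323 and 330 with guide 2. Every knockout library of PSAP was below every control, a fall of 0.28 on the log2 scale (SE 0.0233, adjusted p = 7.66e-14, edgeR). NPC2, which hands cholesterol to NPC1, fell by 0.15 (SE 0.0346) with overlapping libraries, and was at 0.01 under library-size scaling. GRN, the precursor of the granulins, had a log2 fold change of 0.07 (SE 0.0430) and was not called, but was called higher under library-size scaling (0.22).

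Among the 6 proteases 3 rose and 2 fell. CTSF, a cysteine cathepsin (ENSG00000174080, chromosome 11, 66563463 to 66568841), showed the largest fall of the list. It read 17.9, 19.2 and 18.7 CPM in control cells, 11.9, 11.0 and 11.4 with guide 1 and 10.5, 10.5 and 9.34 with guide 2. The knockout libraries all lay below the controls, 1.73-fold lower (log2 −0.79, SE 0.0511, adjusted p = 3.99e-17, edgeR). CTSB, a widely expressed cysteine cathepsin, rose from 114, 112 and 121 CPM to between 147 and 153 with guide 1 and between 141 and 146 with guide 2, which is 1.27-fold. CTSA, a carboxypeptidase that also protects the sialidase NEU1, rose 1.14-fold. CTSL, a further cysteine cathepsin, was called higher at 1.05-fold, but its libraries overlapped and the call was lost without control replicate 1 (adjusted p = 0.333, edgeR), control replicate 2, guide 1 replicate 1 or 3, or guide 2 replicate 3. CTSD was 1.13-fold lower as the mean of both guides, with a value of −0.03 (SE 0.0513, not called) for guide 1 and −0.32 (SE 0.0518, called) for guide 2 on the log2 scale, and the mean was −0.02 and not called under library-size scaling. CTSZ was not called (log2 −0.03, SE 0.0308) and was higher under library-size scaling (0.12).

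The 7 glycosidases, which trim sugar chains from glycoproteins and glycolipids, gave 2 that rose and 3 that fell. NEU1, the lysosomal sialidase, rose 1.17-fold and MANBA, the beta-mannosidase, 1.09-fold. MANBA read 18.7, 18.3 and 19.1 CPM in control cells, 21.4, 20.9 and 19.6 with guide 1 and 21.0, 19.6 and 19.99 with guide 2. Its groups did not overlap, yet the call was lost without control replicate 2 (adjusted p = 0.0778, edgeR). GLA, the alpha-galactosidase, fell by 0.30 on the log2 scale (SE 0.0375) and GUSB, the beta-glucuronidase, by 0.25 (SE 0.0377), both with every knockout library under every control. GAA, which breaks down glycogen in the lysosome, was called lower by 0.12 (SE 0.0456, adjusted p = 0.0214, edgeR), with overlapping libraries. That GAA call did not hold without control replicate 1 or 3, guide 1 replicate 3 or guide 2 replicate 2, with a stricter filter, or in a fit limited to the groups compared, and GAA was at 0.04 under library-size scaling. HEXA (log2 −0.08, SE 0.0492) and GLB1, the beta-galactosidase (log2 −0.05, SE 0.0340), were not called. Under library-size scaling GLB1 was called higher, at 0.11, and HEXA was above 0, at 0.075, and not called.

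Of the 4 membrane proteins 3 fell and 1 rose. MCOLN1, a calcium-conducting channel of the lysosome, read 13.3, 11.3 and 10.8 CPM in control cells, 9.79, 8.76 and 8.88 with guide 1 and 8.55, 7.37 and 8.88 with guide 2. All knockout libraries were below the lowest control, and the fold change was −0.44 on the log2 scale (SE 0.0673, adjusted p = 4.30e-07, edgeR). LAMP2, which lines the lysosomal membrane and acts in chaperone-mediated autophagy, read 161, 165 and 161 CPM in control cells, 150, 153 and 152 with guide 1 and 141, 156 and 144 with guide 2. Its libraries did not overlap and it fell by 0.12 (SE 0.0265), but library-size scaling put it at 0.03. LAMP1 fell by 0.07 (SE 0.0219, adjusted p = 0.00742, edgeR), was called higher under library-size scaling (0.09), and lost its call without control replicate 2 and with no filter on low counts (adjusted p = 0.125, edgeR). NPC1, the membrane cholesterol exporter, rose 1.13-fold, from 62.6 to 65.2 CPM in control libraries to 70.8 to 73.5 in those of both guides.

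The 3 proton pump subunits gave 0 calls in edgeR, 0 at an unadjusted p under 0.05 and 0 in DESeq2. ATP6V0A1, of the membrane sector, read 39.6, 38.0 and 36.3 CPM in control cells, 37.4, 37.3 and 36.8 with guide 1 and 37.3, 35.3 and 35.5 with guide 2. These ranges overlapped, and the 95% interval of its log2 fold change ran from −0.13 to 0.02. The interval was −0.01 to 0.12 for ATP6V0D1 and −0.08 to 0.06 for ATP6V1H, the former of the membrane sector and the latter of the cytosolic one. Under library-size scaling all 3 were called higher, ATP6V0D1 at 0.21, ATP6V1H at 0.14 and ATP6V0A1 at 0.10. ATP6V0D1 was also called higher without control replicate 3 (adjusted p = 0.0308, edgeR) and when genes needed a mean CPM of 1 (adjusted p = 0.0474, edgeR).

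Of the 4 autophagy genes 2 fell, and 0 rose by edgeR, by an unadjusted p under 0.05 or by DESeq2. MAP1LC3B, which encodes the LC3B protein that is lipidated onto autophagosomes, read 122, 129 and 135 CPM in control cells. It read 96.4, 94.9 and 96.6 CPM with guide 1 and 86.0, 87.5 and 87.6 with guide 2. The groups were apart and the fall was 1.41-fold (log2 −0.49, SE 0.0265, adjusted p = 9.73e-20, edgeR). GABARAPL1, of the same ubiquitin-like family, read 37.4, 37.5 and 41.6 CPM in control cells, 35.9, 34.8 and 36.9 with guide 1 and 30.3, 32.7 and 33.6 with guide 2. It fell by 0.19 (SE 0.0401, adjusted p = 6.49e-05, edgeR) with every knockout library below the controls, and was at −0.04 and not called under library-size scaling. SQSTM1, the p62 cargo receptor of selective autophagy, was not called (log2 −0.06, SE 0.0306, adjusted p = 0.105, edgeR), became lower without control replicate 2 (adjusted p = 0.0157, edgeR) or guide 2 replicate 1, and was higher under library-size scaling, at 0.10. WIPI1 was not called, with a 95% interval of −0.09 to 0.19, but was called higher under library-size scaling (0.21).

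**Figure D2:**
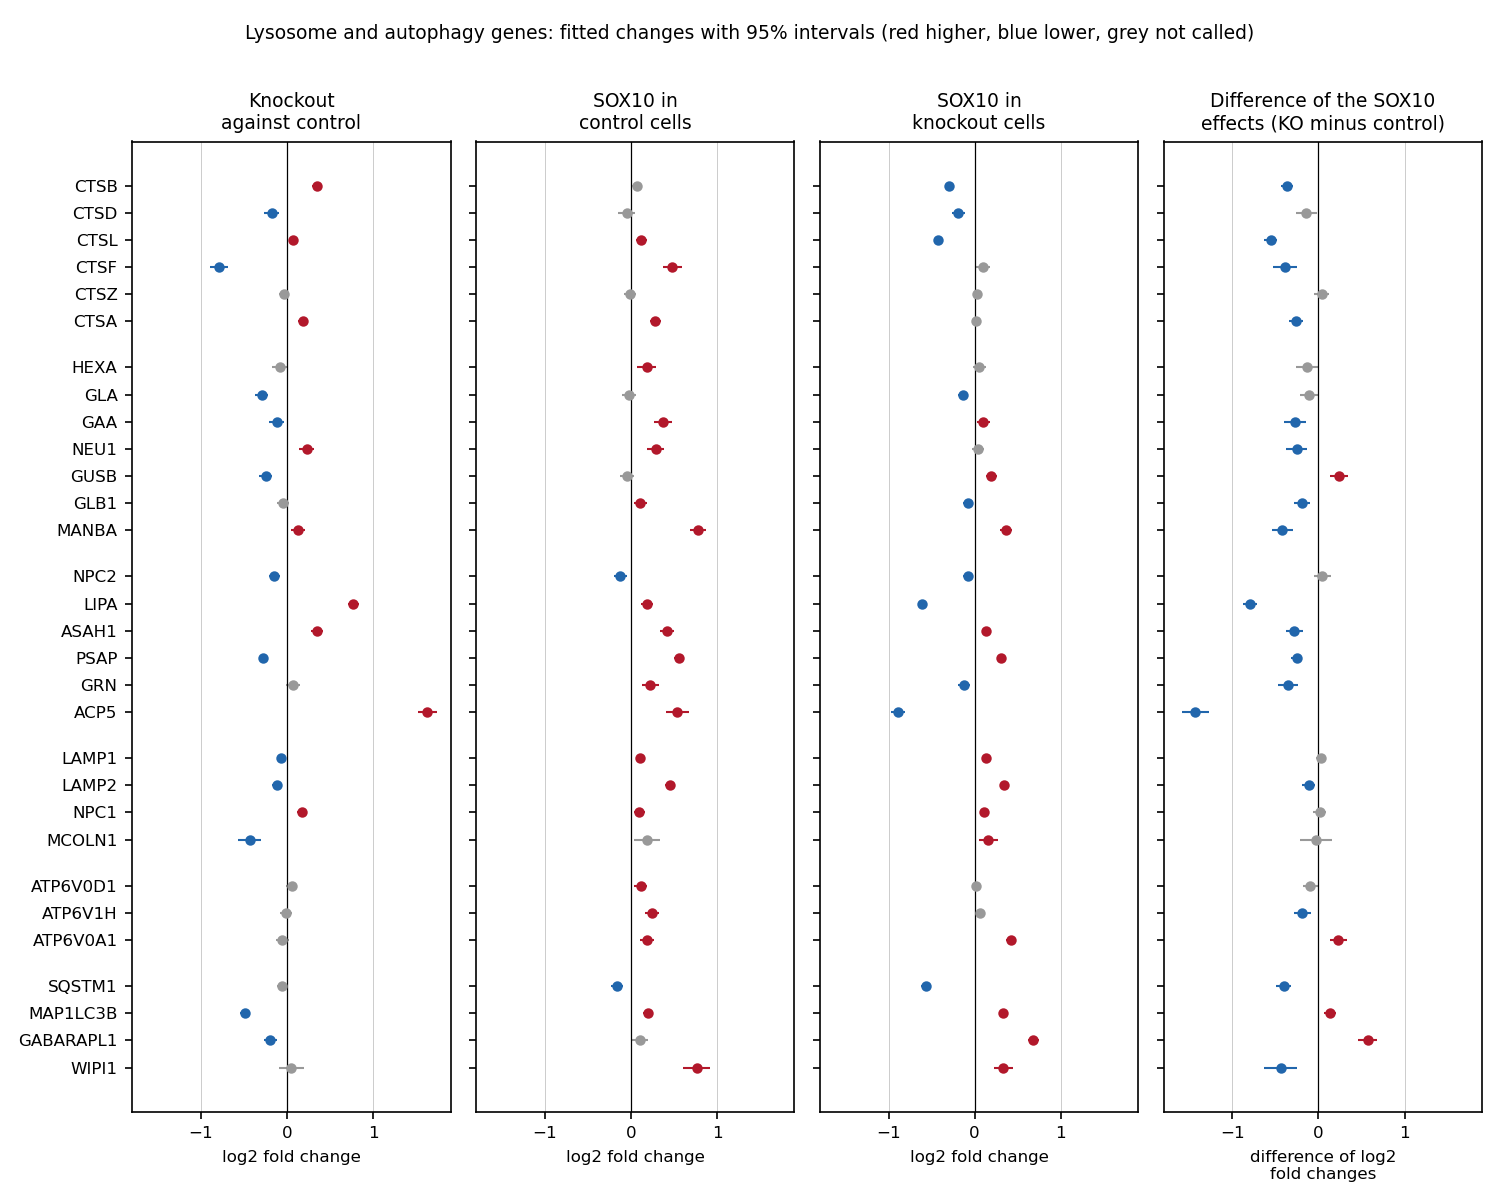
Fitted log2 fold changes (x axes) of the 30 genes (y axis, grouped by role from proteases at the top to autophagy genes at the bottom) in 4 comparisons, with bars for 95% intervals, from TMM-scaled edgeR fits. ACP5 lies furthest right in the knockout panel at 1.63 and furthest left in the panel of the difference at −1.43, and library-size scaling would move the median of all genes in the knockout panel by 0.155.

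The guides share their control libraries, so the values of each are set side by side. Guide 1 called 10 genes higher and 8 lower, where 26.2% and 26.4% of all genes were called, and guide 2 called 6 higher and 16 lower, where 27.9% and 28.1% were called. Under library-size scaling these counts became 21 and 4 for guide 1 (39.8% and 14.7% of all genes) and 14 and 8 for guide 2 (42.1% and 16.5%). In the list 6 genes were higher with each guide (ACP5, ASAH1, CTSB, LIPA, NEU1 and NPC1) and 8 were lower with each (CTSF, GABARAPL1, GLA, GUSB, LAMP2, MAP1LC3B, MCOLN1 and PSAP). How many of all genes were called in the same direction with both guides was not counted. Of the lower ones, LAMP2 (0.05 with guide 1 and 0.02 with guide 2) and, with guide 1, GABARAPL1 (0.03) were above 0 under library-size scaling. In guide 1 the call of GABARAPL1 was lost without control replicate 3 (adjusted p = 0.309, edgeR) or guide 1 replicate 1 or 2, that of GRN without control replicate 2 or guide 1 replicate 1, that of MANBA without control replicate 2 or guide 1 replicate 1 or 2, and that of CTSL without control replicate 1 or 2 or guide 1 replicate 1 or 3. In guide 2 those of CTSZ and GLB1 were lost without control replicate 3, and that of GLB1 also without control replicate 2. Tested directly, guide 2 was lower than guide 1 for 10 genes, against 6.09% of all genes, and higher for 0 in edgeR and in DESeq2 and for 1 at an unadjusted p under 0.05, against 2.65% of all genes in edgeR. Library-size scaling gave the same counts, against 3.87% and 5.30% of all genes higher and lower. The lower ones were CTSD (log2 −0.28), SQSTM1 (−0.26), GAA (−0.23), CTSA (−0.22), HEXA (−0.19), NPC2 (−0.18), GABARAPL1 and PSAP (−0.16 each), CTSZ (−0.15) and MAP1LC3B (−0.14). SQSTM1 read 162, 154 and 159 CPM with guide 1 and 139, 123 and 136 with guide 2, and these did not overlap. The HEXA difference lost its call without any 1 library of guide 1 or without guide 2 replicate 2 or 3, and that of GABARAPL1 without guide 1 replicate 1 or 3 or guide 2 replicate 1 (adjusted p = 0.190, edgeR). Leaving out guide 2 replicate 1 added GLB1 and GRN to the lower ones. Without the second library of guide 2 the differences of CTSF and LAMP2 were called, and in the guide 2 comparison CTSZ (adjusted p = 0.0748, edgeR) and GLB1 (adjusted p = 0.269, edgeR) were no longer lower while MANBA was higher. The ACP5, LIPA and CTSF differences between guides were 0.12 (SE 0.0576), 0.03 (SE 0.0328) and −0.18 (SE 0.0622), and none of these was called.

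SOX10 overexpression in control cells moved most of the list upward. Of the 30 genes 21 rose and 2 fell, where 17.3% of all genes tested rose and 17.2% fell, and the median log2 fold change was 0.19 over the list and −0.01 over all genes. The counts were the same under library-size scaling, where 17.5% and 16.6% of all genes were called. The summed melanoma markers also lay higher in these libraries (893 to 895 CPM against 535 to 563), and their part was not tested. All SOX10 libraries lay above all controls for 20 genes and below them for 3, where 22.0% and 22.7% of all genes did so. The largest rises were those of MANBA at 1.72-fold, WIPI1 at 1.70-fold, PSAP at 1.47-fold and ACP5 at 1.45-fold, and no change of the 30 reached 2-fold.

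MANBA read 32.5, 31.8 and 32.1 CPM in the 3 SOX10 libraries of control cells, all above its control range (log2 0.78, SE 0.0494, adjusted p = 7.12e-17, edgeR). WIPI1 read 10.9, 12.5 and 12.6 CPM against 8.13, 6.63 and 6.39 without SOX10. PSAP read 619, 623 and 615 CPM, and ACP5 10.1, 11.2 and 10.4. In each of these 4 genes the lowest SOX10 library was above the highest control. All 3 pump subunits rose, among them ATP6V0A1 with 44.3, 44.0 and 41.8 CPM (log2 0.19, SE 0.0418, adjusted p = 0.000255, edgeR). LAMP2 rose 1.37-fold to 221, 216 and 229 CPM, CTSF 1.40-fold to 26.9, 26.2 and 24.96 CPM, and MAP1LC3B 1.15-fold to 147, 146 and 150 CPM, again without overlap. The 2 genes that fell were SQSTM1, by 0.16 (SE 0.0355) to 139, 134 and 131 CPM, and NPC2, by 0.12 (SE 0.0401). The NPC2 call was lost without control replicate 2, without SOX10 replicate 2 or with no filter on low counts. The smaller rises of CTSL, HEXA, GLB1, NPC1 and ATP6V0D1 each depended on at least 1 library: leaving out control replicate 1 ended the calls of CTSL (adjusted p = 0.0548), GLB1 (adjusted p = 0.109) and ATP6V0D1 (adjusted p = 0.132), SOX10 replicate 1 that of NPC1 (adjusted p = 0.169), and SOX10 replicate 2 that of HEXA (adjusted p = 0.102), all by edgeR. The omissions of control replicate 2 (HEXA, GLB1 and ATP6V0D1), control replicate 3 (NPC1), SOX10 replicate 2 (GLB1 and ATP6V0D1) and SOX10 replicate 3 (GLB1) ended calls as well. The genes not called were CTSB, CTSD, CTSZ, GLA, GUSB, MCOLN1 and GABARAPL1. Leaving out control replicate 3 made CTSB and GABARAPL1 higher, and leaving out control replicate 1 made MCOLN1 higher.

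In the knockout lines SOX10 overexpression moved the list both ways. As the mean of both guides, 13 genes rose and 10 fell, where 28.1% of all genes tested rose and 28.1% fell, and the median was 0.06 over the list and 0.000651 over all genes tested. These counts were the same under library-size scaling, with 27.1% and 29.3% of all genes called. ACP5 fell to 13.0, 12.3 and 14.0 CPM in guide 1 and 10.6, 11.7 and 11.4 in guide 2, below every knockout library without SOX10 (1.85-fold, log2 −0.89, SE 0.0426, adjusted p = 1.97e-21, edgeR). It remained above control cells, with a fold of 1.67 for knockout with SOX10 against control. LIPA fell to 61.7, 58.3 and 60.2 CPM in guide 1 and 59.7, 59.6 and 60.5 in guide 2, which is 1.52-fold and again without overlap. Its 6 values lay close to the 61.1, 60.5 and 61.7 CPM of control cells with SOX10.

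Proteases gave 3 falls in the knockout lines with SOX10 and 0 higher calls in edgeR, with 1 at an unadjusted p under 0.05 and 0 in DESeq2. CTSL fell from 158 to 169 CPM over the 6 knockout libraries to 126, 128 and 131 CPM in guide 1 and 112, 112 and 115 in guide 2. The groups were well apart (log2 −0.43, SE 0.0227, adjusted p = 5.72e-20, edgeR), and all SOX10 libraries of the knockout lines also lay below the controls. CTSB fell 1.23-fold to between 115 and 126 CPM, and its difference from control cells was then not called (log2 0.05, SE 0.0265), but was called higher without control replicate 3 (adjusted p = 0.0178, edgeR), without guide 1 with SOX10 replicate 1, and under library-size scaling (0.20). CTSD fell by 0.19 (SE 0.0369) with overlapping libraries. CTSF read 12.7, 13.6 and 13.5 CPM in guide 1 and 10.4, 9.61 and 9.91 in guide 2 with SOX10. The guide 1 libraries lay above those of the same guide without SOX10 (11.0 to 11.9 CPM). Those of guide 2 overlapped theirs (9.34 to 10.5 CPM). As the mean of both guides CTSF was not called (log2 0.10, SE 0.0439, adjusted p = 0.0571, edgeR). It was called higher when any of 5 single libraries was left out, the second of guide 2 among them.

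The autophagy genes moved in opposite directions. GABARAPL1 rose to 52.5, 49.8 and 55.6 CPM in guide 1 and to 55.0, 56.9 and 57.9 in guide 2, above every library of the other groups (1.61-fold against the knockout lines, log2 0.68, SE 0.0322, adjusted p = 1.20e-21, edgeR). SQSTM1 fell to 105, 105 and 104 CPM in guide 1 and to 90.2, 91.7 and 91.6 in guide 2, below every library of the other groups (1.48-fold, log2 −0.57, SE 0.0254, adjusted p = 1.34e-21, edgeR). SQSTM1 shares 1582 exonic bases with MRNIP on the opposite strand, which read 7.20 to 8.00 CPM in the knockout groups and 6.96 to 7.37 with SOX10. MAP1LC3B rose 1.26-fold to 118, 119 and 117 CPM in guide 1 and 109, 114 and 114 in guide 2, between the knockout lines and the controls without touching either. WIPI1 rose by 0.33 (SE 0.0568, adjusted p = 3.41e-06, edgeR) to 9.79, 9.40 and 9.77 CPM in guide 1 and 8.61, 8.53 and 9.12 in guide 2. WIPI1 shares 828 exonic bases with ARSG on the opposite strand, whose mean lay between 1.13 and 1.82 CPM in every group.

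All 4 membrane genes rose with SOX10 in the knockout lines. LAMP2 reached 195, 188 and 191 CPM in guide 1 and 187, 182 and 188 in guide 2, above both the knockout and the control libraries (log2 0.34, SE 0.0216, adjusted p = 3.55e-17, edgeR). MCOLN1 rose by 0.16 (SE 0.0559, adjusted p = 0.0163, edgeR) to 9.78, 10.9 and 9.88 CPM in guide 1 and 9.33, 9.19 and 9.16 in guide 2. The guide 1 libraries overlapped those of the same guide without SOX10, and those of guide 2 lay above theirs. MCOLN1 lost its call without the second library of guide 2 (adjusted p = 0.0505) or guide 1 with SOX10 replicate 2 (adjusted p = 0.0651), by edgeR. Of the pump subunits ATP6V0A1 rose 1.34-fold to 48.1, 48.7 and 45.2 CPM in guide 1 and 48.7, 51.7 and 52.0 in guide 2, again above all libraries without SOX10. PSAP rose 1.23-fold to 448, 457 and 475 CPM in guide 1 and 398, 397 and 395 in guide 2. Guide 1 thereby lay above the control libraries and guide 2 below them. MANBA rose 1.28-fold to 27.9, 25.8 and 24.97 CPM in guide 1 and 25.7, 26.3 and 26.6 in guide 2. Smaller calls that 1 library decided were those of GAA, lost without guide 1 replicate 3, guide 1 with SOX10 replicate 3 or the second library of guide 2, of GLB1, lost without guide 1 with SOX10 replicate 1 or guide 2 replicate 1, and of NPC2, lost in 5 of the omissions, and ATP6V1H, not called (log2 0.06, SE 0.0281), became higher in 4.

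**Figure D3:**
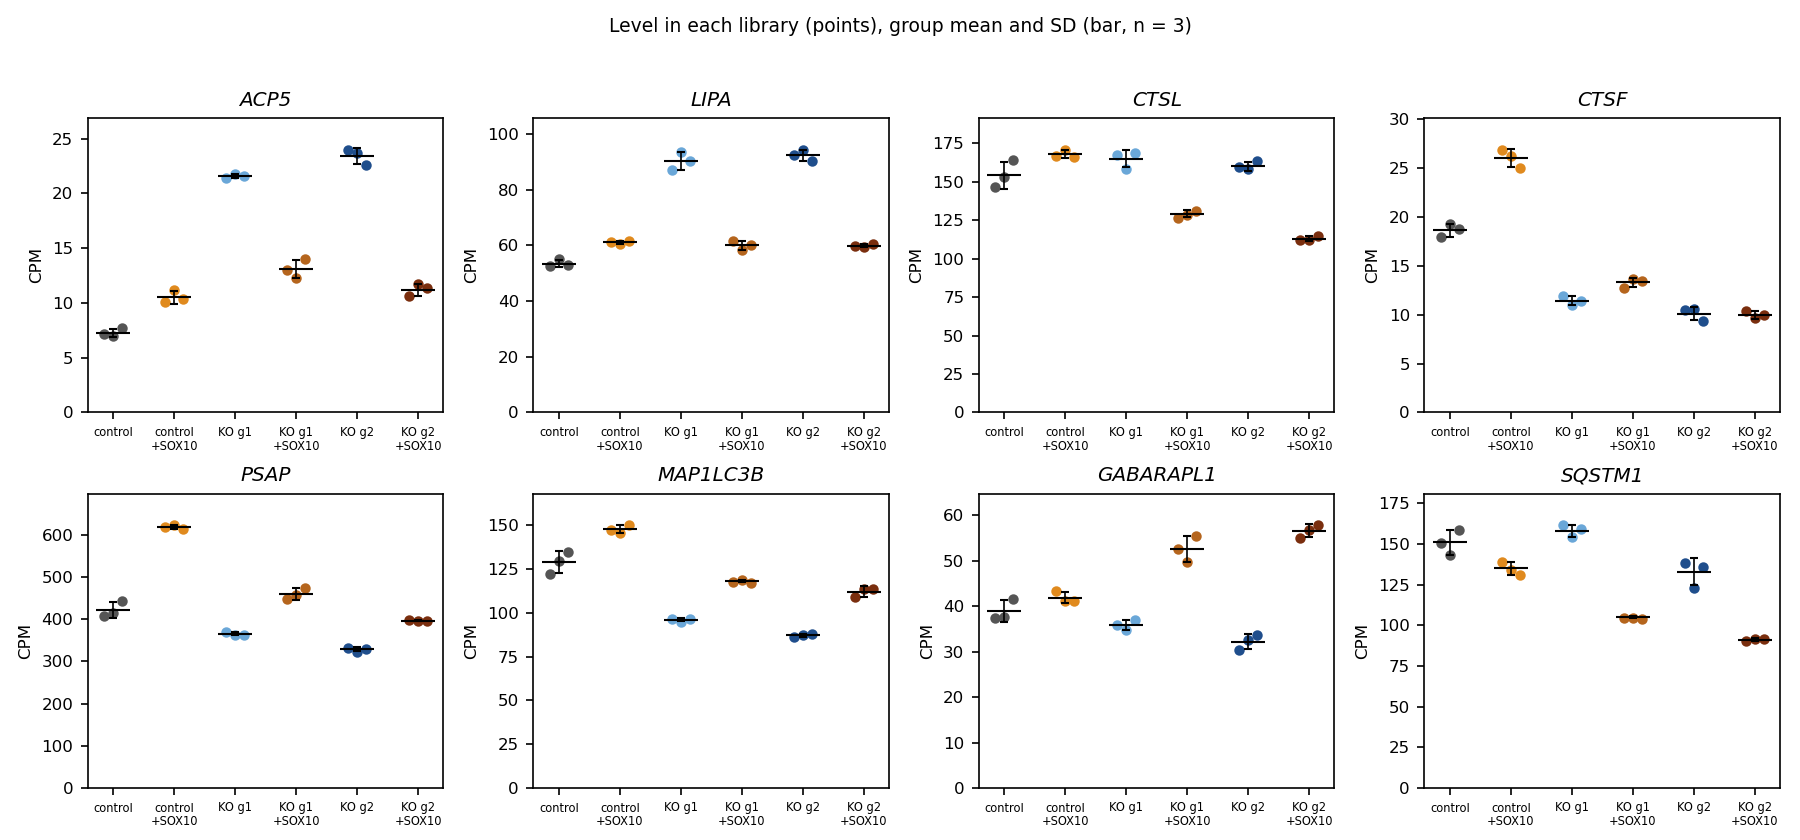
Level in CPM (y axes, from 0) of 8 genes in each of the 18 libraries (points) by group (x axes), with a horizontal bar for the group mean and whiskers for 1 SD (n = 3). ACP5 and LIPA are highest in the 2 knockout groups without SOX10, at 21.4 to 24.0 and 87.1 to 94.4 CPM, while GABARAPL1 is highest and SQSTM1 lowest in the 2 knockout groups with SOX10.

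The knockout comparison and the SOX10 comparison within knockout lines share the knockout libraries, so the counts that follow only list which calls each gene received. Of the 9 genes higher in the knockout, 4 (ACP5, CTSB, CTSL and LIPA) were lower with SOX10, 3 (ASAH1, MANBA and NPC1) were higher still and 2 (CTSA and NEU1) were not called. Of the 12 lower in the knockout, 8 (GAA, GABARAPL1, GUSB, LAMP1, LAMP2, MAP1LC3B, MCOLN1 and PSAP) were higher with SOX10, 3 (CTSD, GLA and NPC2) were lower still, and CTSF was not called. Knockout lines with SOX10 differed from control cells by 12 genes higher and 9 lower, where 57.9% of all genes were called (6326 higher and 5866 lower), and by 20 higher and 6 lower under library-size scaling, where 43.5% and 15.6% of all genes were called. GABARAPL1, LAMP1 and LAMP2, lower in the knockout, were then higher than in control cells, and CTSL, higher in the knockout, was then lower. LAMP1 lost this call without control replicate 3 (adjusted p = 0.0546, edgeR).

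The effect of SOX10 differed between knockout and control cells for 21 of the 30 genes by edgeR's test of the interaction, where 33.3% of all genes were called. It was more negative in the knockout for 17 and more positive for 4, where 15.1% and 18.1% of all genes were called in these directions, and the median difference was −0.19 over the list and 0.02 over all genes tested. Library-size scaling gave the same counts, with 16.3% and 17.0% of all genes. SOX10 itself rose 1.28-fold with overexpression in control cells and 4.44-fold in the knockout lines. The 2 settings thus differ in the size of the SOX10 rise as well as in genotype, and the part of each was not tested. In the list 5 genes rose with SOX10 in control cells and fell with it in the knockout lines (ACP5, CTSL, GLB1, GRN and LIPA). How many of all genes did so was not counted. The ACP5 effect was 0.54 in control cells and −0.89 in the knockout, a difference of −1.43 (SE 0.0796, adjusted p = 2.13e-18, edgeR). For LIPA the effects were 0.19 and −0.61, a difference of −0.80 (SE 0.0418). For CTSL they were 0.12 and −0.43, a difference of −0.55 (SE 0.0393), although the rise in control cells was lost without control replicate 1. WIPI1, MANBA and PSAP rose in both settings, by less in the knockout. The 4 genes with a more positive effect in the knockout were GABARAPL1, with 0.11 in control cells and 0.68 in the knockout (difference 0.58, SE 0.0562, adjusted p = 4.25e-11, edgeR), GUSB (difference 0.24), ATP6V0A1 (0.23) and MAP1LC3B (0.13). For the membrane genes LAMP1, NPC1 and MCOLN1 the difference was not called, and its 95% intervals were −0.03 to 0.09, −0.06 to 0.09 and −0.22 to 0.16. The LAMP2 difference (−0.11, SE 0.0374) was lost without control with SOX10 replicate 3, that of CTSD was gained without the second library of guide 2 (adjusted p = 0.0462, edgeR), that of GLA without control with SOX10 replicate 1, and that of ATP6V0D1 without control replicate 3.

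The genes whose promoter stretches are shown above did not share a direction in the knockout under TMM scaling. ACP5, with the TCATGTG match shown, rose by 1.63, CTSA rose by 0.18, LAMP1, GAA and MCOLN1 fell by 0.07, 0.12 and 0.44, and ATP6V0D1 had a value of 0.05 and was not called, all on the log2 scale. The other genes with a match were NEU1, which rose by 0.23, CTSD and CTSF, which fell by 0.18 and 0.79, and GRN (0.07, not called). Whether a factor acts at any of these sites was not tested. Under library-size scaling ACP5, CTSA (0.34), ATP6V0D1 (0.21) and LAMP1 (0.09) were called higher, GAA was at 0.04 and not called, and MCOLN1 was lower (−0.28). With SOX10 in control cells ACP5, CTSA, LAMP1, GAA and ATP6V0D1 rose, and MCOLN1 had a value of 0.19 (SE 0.0765, adjusted p = 0.0548, edgeR). MITF itself read 39.7 ± 0.540 CPM in control cells, 85.4 ± 1.77 with SOX10, 84.3 ± 2.01 and 92.1 ± 2.96 in the knockout lines of guide 1 and guide 2, and 64.2 ± 3.14 and 56.3 ± 2.37 in these lines with SOX10 (SD, n = 3). TFEB, at a low level, rose from 0.651 ± 0.0454 CPM in control cells to 1.26 ± 0.163 and 1.28 ± 0.329 with guide 1 and guide 2 (SD, n = 3). Its knockout change was 0.96 on the log2 scale (SE 0.207, adjusted p = 0.000108, edgeR). TFE3, at 76.9 CPM in control cells, had a value of 0.08 (SE 0.0307, adjusted p = 0.0258, edgeR).

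Other genes of the pathway were counted in 6 lists made from general knowledge, with earlier results of these data known. Over all genes tested, 28.6% were higher and 29.5% lower in the knockout, 17.3% and 17.2% with SOX10 in control cells, and 28.1% and 28.1% with SOX10 in the knockout lines. Under library-size scaling 43.3% of all genes were higher and 16.8% lower in the knockout. Of 35 other lysosomal hydrolases tested, 22 were higher and 5 lower in the knockout (28 and 3 under library-size scaling), 26 higher and 2 lower with SOX10 in control cells, and 21 higher and 11 lower with SOX10 in the knockout lines. CTSS, a cathepsin best known from antigen-presenting cells, had the largest rise among them, from 1.48 ± 0.0418 CPM to 7.82 ± 0.438 and 8.28 ± 0.511 with guide 1 and guide 2 (SD, n = 3, 5.43-fold, adjusted p = 1.95e-26, edgeR), and reached 18.1 ± 0.177 and 21.9 ± 1.17 CPM when SOX10 was added. CTSS therefore rose with SOX10 in the same lines in which LIPA, CTSL and ACP5 fell. CTSC, which activates serine proteases of granules, had the largest fall, from 458 ± 2.59 to 324 ± 0.827 and 252 ± 2.39 CPM (SD, n = 3, adjusted p = 1.26e-28, edgeR). Of 12 genes that tag and sort enzymes to the lysosome, 6 were higher and 1 was lower in the knockout (10 higher under library-size scaling). GNPTAB, of the enzyme that starts the mannose 6-phosphate tag, rose 1.20-fold, and NAGPA, of the uncovering enzyme that completes it, fell by 0.30 (adjusted p = 0.0112, edgeR). The NAGPA fall was called with guide 2 and not with guide 1 (adjusted p = 0.0538, edgeR).

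Of 21 other lysosomal membrane genes tested, 8 were higher and 9 lower in the knockout (10 and 6 under library-size scaling, with 43.3% and 16.8% of all genes). LAMP3, a relative of LAMP1 with restricted expression, rose 1.74-fold from 0.311 CPM, and TPCN2, a calcium and sodium channel of lysosomes and melanosomes, fell from 14.1 ± 1.38 to 8.81 ± 0.172 and 8.13 ± 0.776 CPM (SD, n = 3). The LAMP3 rise was called with guide 2 and not with guide 1 (adjusted p = 0.06, edgeR). The 21 other V-ATPase genes split into 6 higher and 6 lower (12 and 1 under library-size scaling). ATP6V0D2, an isoform known from osteoclasts, as is ACP5, had 0, 1 and 0 reads in the control libraries and 7, 7 and 16 with guide 1 and 5, 14 and 12 with guide 2, and 6, 0 and 1 and 0, 0 and 1 in these lines with SOX10. No fold is given for so few reads. ATP6V0B, of the membrane sector, fell by 0.41 (SE 0.0324). With SOX10 in the knockout lines 13 of these 21 genes were higher and 3 lower, where 28.1% of all genes were called in each direction.

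Of 41 other autophagy genes tested, 15 were higher and 18 lower in the knockout (25 and 5 under library-size scaling, with 43.3% and 16.8% of all genes). MAP1LC3C, a further LC3 gene, rose 3.26-fold from 0.402 CPM while MAP1LC3B fell, and ATG101, of the kinase complex that starts autophagy, fell from 27.3 ± 1.63 to 18.0 ± 0.0636 and 18.3 ± 1.26 CPM (SD, n = 3). Of 19 MiT/TFE and nutrient sensing genes, 7 were higher and 3 lower in the knockout (15 higher under library-size scaling), and 2 higher and 11 lower with SOX10 in the knockout lines (28.1% of all genes in each direction). TFEC had the largest rise of these, 2.43-fold from 0.236 CPM, and RHEB, which switches on mTORC1 at the lysosome, the largest fall, by 0.19 (SE 0.03).

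**Figure D4:**
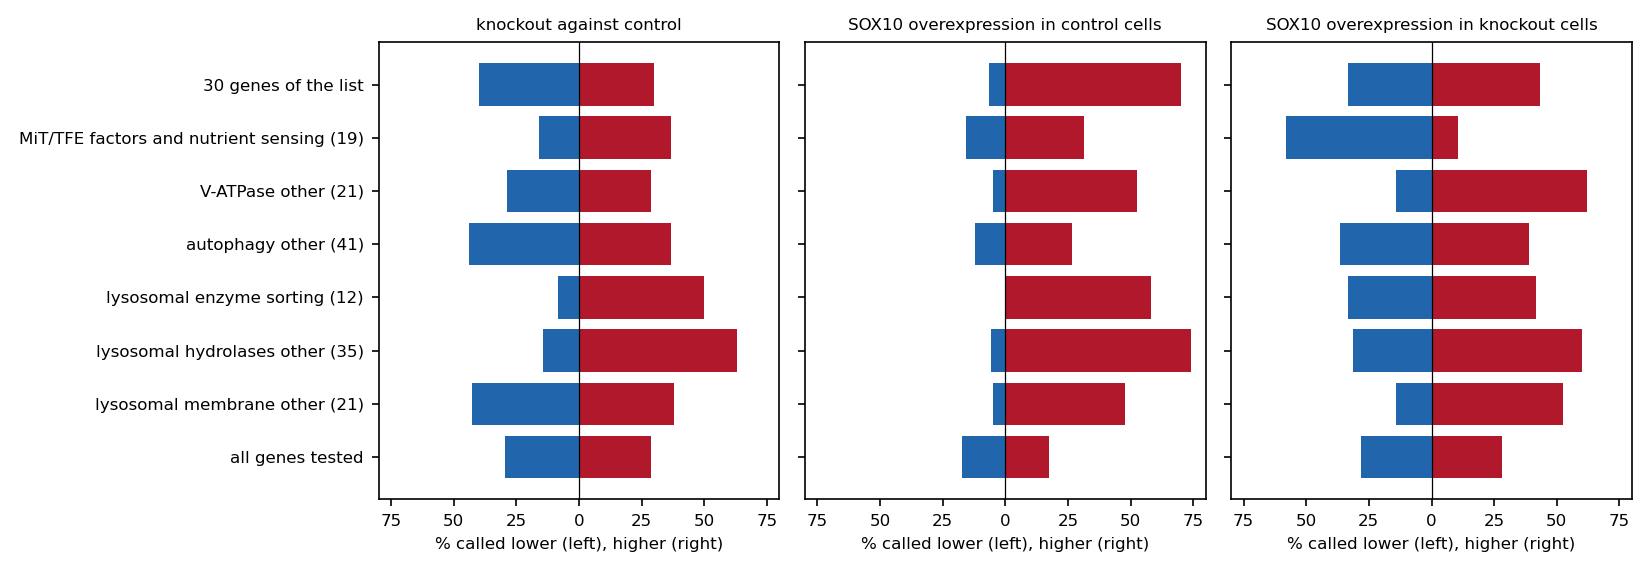
Percent of genes called lower (blue, to the left) and higher (red, to the right) among the 30 genes, the 6 lists of other genes of the pathway (number tested in brackets) and all 21060 genes tested (bottom bars), in 3 comparisons under TMM scaling. The bars to the right are longest for the hydrolases in the knockout panel, with 22 of 35, where library-size scaling gives 28, and for the 30 genes and the hydrolases in the panel of SOX10 in control cells, with 21 of 30 and 26 of 35. Under library-size scaling 43.3% of all genes were higher in the knockout.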

How the data were processed

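The values are unnormalized whole-number counts of reads per gene in 18 A375 libraries, as the authors deposited them in a single table. Per the labels' protocols, total RNA was taken up on columns and the library kit was KAPA Stranded mRNA-Seq. The submitters' processing notes name HISAT2, HTSeq and hg38, while tool versions, gene annotation and strand option were not given in the sources used here. All 58721 identifiers matched GENCODE 29, and 58207 had a symbol. Groups came from the sample titles.

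The counts went into edgeR 4.0.16 (R 4.3.3): filterByExpr by group (21060 genes kept, all 30 of the list among them), TMM scaling, and 1 robust quasi-likelihood fit of 6 group means to all libraries (12 residual degrees of freedom, biological coefficient of variation 4.02%). Tests were two-sided, with Benjamini-Hochberg adjustment over all genes tested and calls at an adjusted p under 0.05. CPM use the TMM-adjusted library sizes, so a count of 3 equals 0.0359 to 0.0493 CPM. Intervals (95%) were computed from the fitted value and its SE with the normal distribution. They are thus somewhat narrower than the edgeR test implies, and can leave out 0 at a p above 0.05. The pipeline was tested on simulated data.

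The genes, the lists and the tests were chosen with earlier results of these data known. Values per library are printed for genes called at 0.5 or more log2 units in the knockout, with SOX10 in the knockout or in the interaction, and for at least 1 gene of each role, picked with the values known. From each other list the called genes with the largest rise and fall in the knockout are named. Alternatives were library-size and RLE scaling, DESeq2 1.42.0, other filters, only the compared groups, a replicate block and leaving out each library.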

Additional observations from a re-analysis of the deposited data

Results flagged for a closer look

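For 21 of the 30 genes the effect of SOX10 overexpression differed between knockout and control cells, by edgeR's test of the interaction at an adjusted p under 0.05. Of all genes tested 33.3% were called, 15.1% with a more negative and 18.1% with a more positive effect in the knockout. The difference, knockout minus control on the log2 scale, was −1.43 for ACP5, −0.80 for LIPA, −0.55 for CTSL, −0.44 for WIPI1, −0.42 for MANBA, −0.41 for SQSTM1, −0.39 for CTSF, −0.37 for CTSB and −0.35 for GRN. It was −0.28 for ASAH1, −0.27 for GAA, −0.26 for CTSA, −0.25 for NEU1 and for PSAP, −0.19 for ATP6V1H and for GLB1, and −0.11 for LAMP2. It was 0.58 for GABARAPL1, 0.24 for GUSB, 0.23 for ATP6V0A1 and 0.13 for MAP1LC3B. SOX10 itself rose 1.28-fold in control cells and 4.44-fold in the knockout lines, and the part of this unequal rise was not tested.

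For 10 genes the knockout effect differed between the lines of guide 2 and guide 1, guide 2 being lower. Of all genes tested 6.09% were lower and 2.65% higher with guide 2. The log2 differences were −0.28 for CTSD, −0.26 for SQSTM1, −0.23 for GAA, −0.22 for CTSA, −0.19 for HEXA, −0.18 for NPC2, −0.16 for GABARAPL1 and for PSAP, −0.15 for CTSZ and −0.14 for MAP1LC3B.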

How the results depend on the processing

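Library-size scaling changed most. Genes of the list called higher and lower went from 9 and 12 to 18 and 6 in the knockout, from 10 and 8 to 21 and 4 with guide 1, from 6 and 16 to 14 and 8 with guide 2, and the higher ones in the knockout with SOX10 from 12 to 20. Over all genes the counts became 9112 and 3545 for the knockout, 8382 and 3103 for guide 1, 8874 and 3478 for guide 2, and 3295 lower for the knockout with SOX10. Signs turned in the knockout for CTSZ (0.12), GAA (0.035), GLB1 (0.11), NPC2 (0.0095), HEXA (0.075), LAMP1 (0.088), LAMP2 (0.033), ATP6V1H (0.14), ATP6V0A1 (0.10) and SQSTM1 (0.10). They turned with guide 1 for CTSD (0.11), GAA (0.14), NPC2 (0.090), LAMP1 (0.11), LAMP2 (0.048), ATP6V0A1 (0.12) and GABARAPL1 (0.034), and with guide 2 for CTSZ (0.054), GLB1 (0.070), GRN (0.16), LAMP1 (0.062), LAMP2 (0.019), ATP6V0A1 (0.087) and ATP6V1H (0.11). In the knockout with SOX10 they turned for CTSZ (0.14), HEXA (0.12), GAA (0.13), GRN (0.087), GUSB (0.093) and GLB1 (0.023). Neither scaling called HEXA in the knockout, CTSD with guide 1, ATP6V0A1 with guide 2 or GRN in the knockout with SOX10. This scaling moved the median of all genes by 0.147 to 0.162 in these comparisons, and the cause of the shift was not tested.

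With no filter on low counts 1 gene was lower with SOX10 in control cells. Leaving out 1 library gave 7 to 10 higher and 11 to 13 lower genes in the knockout, 7 to 12 and 7 to 8 with guide 1, 6 to 7 and 14 to 16 with guide 2, 18 to 22 and 1 to 2 with SOX10 in control cells, 12 to 15 and 8 to 10 with SOX10 in the knockout, 12 to 13 and 9 for the knockout with SOX10, 4 and 16 to 18 for the interaction, and 0 and 8 to 11 for guide 2 against guide 1. Without guide 1 replicate 1, 336 of all genes were higher with guide 2 than guide 1, against 559 with it.

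Same-numbered libraries of different groups deviated together little (median correlation 0.00572, from −0.0295 to 0.0711, against a median of −0.00525 for differently numbered ones). Since 11 of 18 libraries were closest to their own number, a weak pairing by number cannot be told from none. A replicate block left all 30 knockout results on the same side of the threshold, and over 8 comparisons 236 results of single genes, with 4 gained. DESeq2 left 232 there and RLE scaling 236. The lowest counts of a library (416 for WIPI1, 468 for ACP5 and 500 for MCOLN1) limit the precision of these genes, as do the 3 libraries of each group.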
